A study of Mus musculus with 36 samples.

Results

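Immune checkpoint genes were described in intraductal mouse models of triple-negative breast cancer. They comprised 2 ligands (Cd274, encoding PD-L1, and Pdcd1lg2, encoding PD-L2) and 7 receptors (Pdcd1, Ctla4, Tigit, Lag3, Havcr2, Btla and Cd160). The 9 genes were chosen by name, with earlier results of these data known, and all 9 were among the 21650 genes of the expression table. RNA was sequenced from 36 libraries in 12 groups of 3. 4T1 tumor cells were placed in the mammary ducts of BALB/c mice, Py230 tumor cells in those of C57BL/6 mice, and glands inoculated with Matrigel, the basement membrane extract that carried the cells, served as controls in each strain. Tissue was taken at 1, 3 and 6 weeks post-inoculation (w p.i.), in all groups from dams inoculated at lactation, in glands that then underwent involution. Females were mated at 8 weeks of age. 4T1 is a BALB/c mammary carcinoma line, here carrying luciferase, and Py230 is a line from a mammary tumor of a C57BL/6 mouse with the polyomavirus middle T transgene driven by the MMTV promoter. Each model is thus 1 cell line in 1 strain, and fewer 4T1 than Py230 cells were inoculated. Line, strain and cell number therefore cannot be told apart between 4T1 and Py230 primary tumors. The Matrigel glands measure the strains without a tumor. Bioluminescence in the Py230 model was imaged in C57BL/6 mice with an NF-κB luciferase reporter, and the labels did not state whether the sequenced C57BL/6 mice carried it. Neither did they state whether the 3 libraries of a group came from separate animals, so p-values measure the spread between libraries.

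Checkpoint receptors are switched on in activated T cells and natural killer (NK) cells and dampen them when a ligand on another cell is engaged. PD-1 (Pdcd1) binds PD-L1, which tumor, stromal and myeloid cells make under interferon-γ, and PD-L2, which is more restricted to dendritic cells and macrophages. CTLA-4 competes with CD28 for CD80 and CD86, TIGIT competes with CD226 for CD155 (Pvr) and nectin-2, LAG-3 binds MHC class II, TIM-3 (Havcr2) is also present on macrophages and dendritic cells, and BTLA and CD160 share the ligand HVEM (Tnfrsf14). In tumors these receptors are known both as marks of recent T cell activation and as marks of chronically stimulated, exhausted T cells.

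The genes lie at scattered positions of the mouse genome (GRCm38, GENCODE vM21), and all 9 are protein coding. Ctla4 lies on chromosome 1 (60887000 to 60915832, plus strand), Pdcd1 on chromosome 1 (94038305 to 94052553, minus strand), Cd160 on chromosome 3 (96798763 to 96829351, minus strand), Lag3 on chromosome 6 (124904361 to 124911705, minus strand) and Havcr2 on chromosome 11 (46454935 to 46481255, plus strand). Tigit and Btla are both on chromosome 16 (43648867 to 43664146, minus strand, and 45224315 to 45257670, plus strand). The ligands are neighbours on chromosome 19: Cd274 (29367455 to 29388095, plus strand) ends 22823 bases before Pdcd1lg2 (29410919 to 29471161, plus strand) begins. Exons of Cd274 overlap an antisense transcript and exons of Cd160 overlap Pdzk1 on the opposite strand. Libraries were prepared with strand kept, but the strand setting of the counting was not given in the sources used here, so reads of these partners may not be fully separated.

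The promoters of the neighbouring ligands and of the pair of receptors whose scores ran closest together, Pdcd1 and Tigit, are shown so that the neighbours and the close pair can be read side by side (RefSeq starts, 250 bases before to 50 after, GRCm38, 5′ to 3′ along the gene). Capitals mark matches, on either strand, to a short set of motifs: GGAAAA (the NFAT core), GGGCGG (the GC box), TATAAA (the TATA box), TTCNNNGAA (the GAS element) and GAAANNGAA (a shortened ISRE core).
Cd274 (chr19:29367188-29367487, plus strand): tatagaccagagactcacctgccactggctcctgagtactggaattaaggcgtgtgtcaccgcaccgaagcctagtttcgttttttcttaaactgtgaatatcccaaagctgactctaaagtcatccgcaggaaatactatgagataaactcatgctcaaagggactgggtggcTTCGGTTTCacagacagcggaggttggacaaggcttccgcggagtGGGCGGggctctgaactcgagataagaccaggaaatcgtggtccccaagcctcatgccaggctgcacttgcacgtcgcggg
Pdcd1lg2 (chr19:29410669-29410968, plus strand): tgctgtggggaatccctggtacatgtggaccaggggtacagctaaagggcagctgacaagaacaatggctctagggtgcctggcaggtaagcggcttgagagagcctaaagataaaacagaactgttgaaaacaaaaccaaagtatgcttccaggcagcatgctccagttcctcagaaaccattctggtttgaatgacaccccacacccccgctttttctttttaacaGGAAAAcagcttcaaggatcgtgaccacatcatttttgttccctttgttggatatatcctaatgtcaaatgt
Pdcd1 (chr1:94052504-94052803, minus strand): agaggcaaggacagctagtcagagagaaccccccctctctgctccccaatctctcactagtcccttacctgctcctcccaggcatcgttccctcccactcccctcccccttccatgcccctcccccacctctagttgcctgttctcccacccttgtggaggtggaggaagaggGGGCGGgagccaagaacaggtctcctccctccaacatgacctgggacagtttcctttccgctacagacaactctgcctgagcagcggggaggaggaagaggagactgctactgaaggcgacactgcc
Tigit (chr16:43664135-43664434, minus strand): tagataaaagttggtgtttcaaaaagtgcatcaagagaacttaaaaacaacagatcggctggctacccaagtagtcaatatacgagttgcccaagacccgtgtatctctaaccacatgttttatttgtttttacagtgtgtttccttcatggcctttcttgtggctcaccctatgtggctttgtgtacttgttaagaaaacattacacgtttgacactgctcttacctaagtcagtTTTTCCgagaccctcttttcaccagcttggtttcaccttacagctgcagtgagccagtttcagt
Cd274 and Pdcd1 each hold 1 GC box, a motif present in 35.7% of the 32851 promoters of the table, Cd274 also holds 1 shortened ISRE core, present in 8.56%, and Pdcd1lg2 and Tigit each hold 1 NFAT core, present in 23.4%. None of these 4 windows held the GAS letters, which 8.30% of all promoters hold, or the TATA box (13.6%). These matches are letters in a window and were not tested for binding. Promoters were matched for 8 of the 9 genes, and the other gene was Lag3.

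The deposited values are scores: each library's values have mean 0 and SD 1 over its 21650 genes, so a score says how far above or below the average gene of its library a gene lies, in SD units. Across 13567 genes, 1 score unit corresponded to 2.78 log2 units of the authors' mean normalized count, a relation across genes (Pearson r = 0.97) that need not hold for a single gene. Depth per library is unknown from these values. The authors' mean normalized counts over all libraries were 421 for Cd274, 207 for Havcr2, 204 for Lag3, 152 for Pdcd1lg2, 98.6 for Btla, 52.8 for Tigit, 52.5 for Pdcd1, 43.6 for Ctla4 and 17.8 for Cd160, so Cd160 rests on the fewest reads. Scores of different genes are not compared below. Differences are given with the standard error (SE) from limma, fitted with all 36 libraries, and a gene is called where its Benjamini-Hochberg adjusted p over all 21650 genes is under 0.05. The background percentage beside each count is the share of all genes called in the same comparison and, where a direction is named, in that direction.

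Several libraries stood apart in these genes. 4T1 tumor 1 of week 3 had the highest score of its group for all 9 genes, together with the highest mean score of 10 T cell markers among all tumors (0.44, against -0.47 and -0.11 in tumors 2 and 3 of that week). 4T1 tumor 2 of week 1 was the lowest of its group for 6 of the 9 genes, most widely for Pdcd1lg2, Ctla4 and Tigit, with a T cell marker mean of -0.19 against 0.10 and 0.17. Matrigel gland 1 of C57BL/6 mice at week 1 was the highest of its group for 9 of 9 genes. For the main comparisons, values without one of them are given where its absence changed a call.

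**Figure D1:**
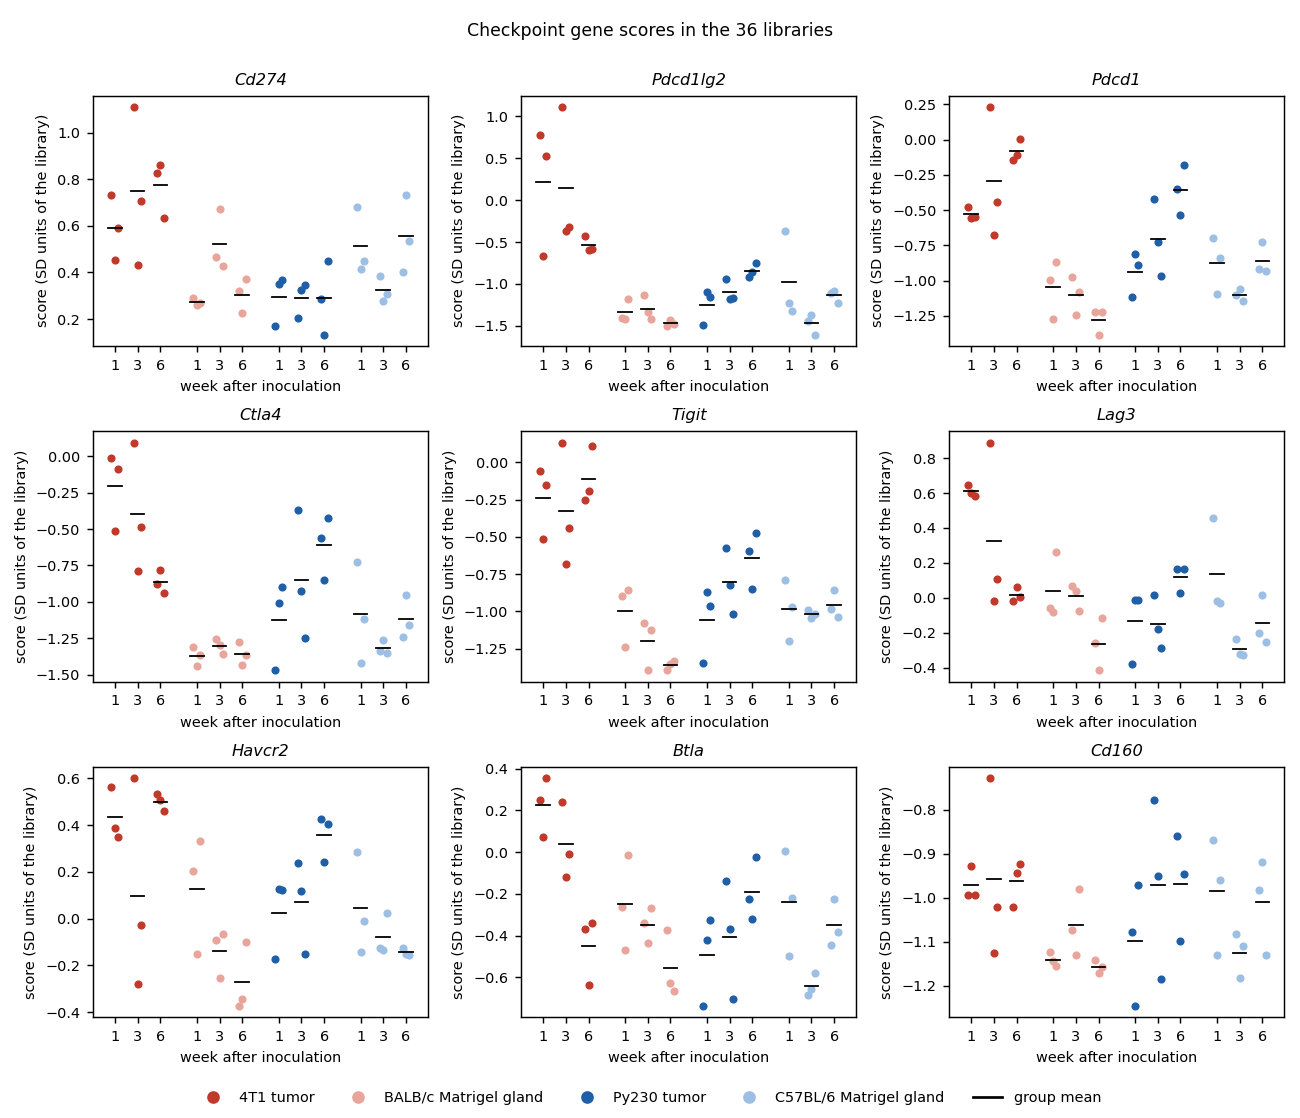
Score of each checkpoint gene (SD units of the library) in the 36 libraries, by week after inoculation, with 1 point per library and a line at the mean of each group of 3. 4T1 primary tumors lie highest for Pdcd1lg2 at weeks 1 and 3, while Pdcd1 and Tigit in 4T1 tumors are at their highest group means at week 6.

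PD-L1 and PD-L2 transcripts were both higher in 4T1 than in Py230 primary tumors at week 3. Pdcd1lg2 was also called at week 1 and Cd274 also at week 6, and the ligands were not tested against each other. In Py230 primary tumors neither ligand was called above the Matrigel gland at any week.

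Pdcd1lg2 scored 0.78, -0.66 and 0.53 in 4T1 primary tumors at week 1 and 1.11, -0.37 and -0.32 at week 3. At week 6 the values were -0.43, -0.60 and -0.58. In Py230 primary tumors they were -1.49, -1.10 and -1.16 at week 1, -0.94, -1.18 and -1.17 at week 3, and -0.91, -0.86 and -0.75 at week 6. Every 4T1 tumor lay above every Py230 tumor of its week. The 9 BALB/c Matrigel glands ranged from -1.50 to -1.13 (median -1.42) and the 9 C57BL/6 glands from -1.61 to -0.37 (median -1.23), so that the highest C57BL/6 gland, gland 1 of week 1, reached the level of 4T1 tumors. The 4T1 minus Py230 difference was 1.46 ± 0.30 at week 1 (adjusted p = 0.0015), 1.24 ± 0.30 at week 3 (adjusted p = 0.0025) and 0.31 ± 0.30 at week 6 (adjusted p = 0.447). This SE rests on a spread shared by all groups. The SD was 0.84 in 4T1 tumors at week 3, and 0.09 in 4T1 and 0.08 in Py230 tumors at week 6. The SE may thus be too small for week 3 and too large for week 6. Against their own glands, 4T1 tumors were higher by 1.55 (adjusted p = 0.00467), 1.44 (adjusted p = 0.0186) and 0.93 (adjusted p = 0.00861), all ± 0.30. The week 3 difference from the gland was 0.95 without 4T1 tumor 1 (adjusted p = 0.249), and the call was also lost without BALB/c gland 2 (0.0811) or gland 3 (0.0619) of that week. The week 1 difference from the gland was lost without 4T1 tumor 3 (adjusted p = 0.0542).

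Cd274 scored 0.73, 0.45 and 0.59 in 4T1 primary tumors at week 1, 1.11, 0.43 and 0.71 at week 3, and 0.83, 0.86 and 0.63 at week 6. In Py230 primary tumors it was flat, at 0.17, 0.35 and 0.37, then 0.20, 0.33 and 0.35, then 0.29, 0.13 and 0.45. The tumor groups did not overlap in any of the 3 weeks, with 4T1 higher. Matrigel glands spanned 0.23 to 0.67 in BALB/c (median 0.32) and 0.28 to 0.73 in C57BL/6 mice (median 0.42), overlapping both tumor models. The 4T1 minus Py230 difference was 0.30 ± 0.12 at week 1 (adjusted p = 0.0756), where it was called without 4T1 tumor 2 of week 1 (0.0409) or tumor 1 (0.0263) or 2 (0.0413) of week 3. It was 0.46 ± 0.12 at week 3 (adjusted p = 0.00438) and 0.49 ± 0.12 at week 6 (adjusted p = 0.00155). Leaving out 4T1 tumor 1 of week 3 moved the week 3 difference to 0.28 (adjusted p = 0.0529), and the week 6 call was not lost without any single library. Against the BALB/c gland, Cd274 was called at week 6 (0.47 ± 0.12, adjusted p = 0.00136), with 0.32 at week 1 and 0.23 at week 3 (adjusted p = 0.0611 and 0.265). The week 1 difference was called without 4T1 tumor 2 of that week (0.39, adjusted p = 0.033) or 4T1 tumor 1 (0.0192) or 2 (0.034) of week 3, and the week 3 one without 4T1 tumor 2 (0.39, adjusted p = 0.0436). In Py230 tumors the difference from the C57BL/6 gland at week 6 was -0.27 ± 0.12 (adjusted p = 0.0631), and it passed the threshold when any of 4 libraries was left out (adjusted p from 0.0226 to 0.0328), namely 4T1 tumors 1 and 2 of week 3, Py230 tumor 3 of week 6 and C57BL/6 gland 1 of week 6.

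Pdcd1 and Tigit, encoding PD-1 and TIGIT, were higher in 4T1 primary tumors than in their Matrigel glands. Both receptors were called above the BALB/c gland in all 3 weeks, and at week 6 they had the smallest p-values of the 9 genes in that comparison. From week 1 to week 6 the mean of Pdcd1 went from -0.53 to -0.08 in 4T1 tumors and from -1.04 to -1.28 in BALB/c glands. With all libraries neither gene was called in 4T1 tumors from week 3 to week 6 (0.21, adjusted p = 0.265 for Pdcd1, and 0.22, adjusted p = 0.28 for Tigit). Without 4T1 tumor 1 of week 3 both were called higher at week 6, and their week 3 calls over the gland were lost (adjusted p = 0.194 for both). Those week 3 calls were also lost without BALB/c gland 2 (0.0814 for Pdcd1, 0.0811 for Tigit) or 3 (0.0519, 0.0504) of that week. Their week 1 calls over the gland were lost without 4T1 tumor 1 (0.106, 0.0523) or 3 (0.102, 0.0569) or BALB/c gland 2 (0.172, 0.0667) of that week. Over the 36 libraries the scores of Pdcd1 and Tigit correlated with r = 0.93, the highest of the 36 pairs among the 9 genes, a description over libraries that share groups.

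Pdcd1 scored -0.48, -0.56 and -0.55 in 4T1 tumors at week 1, 0.23, -0.68 and -0.44 at week 3, and -0.14, -0.11 and 0.00 at week 6. Py230 tumors scored -1.12, -0.81 and -0.89, then -0.42, -0.72 and -0.97, then -0.35, -0.54 and -0.18. Both models were lowest at week 1, and the groups overlapped at week 3 alone. BALB/c glands lay between -1.38 and -0.87 (median -1.22), below every 4T1 tumor, and C57BL/6 glands between -1.15 and -0.70 (median -0.94). Pdcd1 was higher in 4T1 tumors than in their glands by 0.52 at week 1 (adjusted p = 0.0294), 0.80 at week 3 (adjusted p = 0.0152) and 1.19 at week 6 (adjusted p = 5.93e-07), all ± 0.16. In Py230 tumors it was higher than in the gland at week 6 (0.51 ± 0.16, adjusted p = 0.0102), a call lost without Py230 tumor 3 of that week (adjusted p = 0.0566). Directly between the models no week was called, at 0.41 (adjusted p = 0.0671), 0.41 (adjusted p = 0.0521) and 0.27 (adjusted p = 0.182), all ± 0.16. The week 3 difference was called without 4T1 tumor 2 (0.60, adjusted p = 0.00734) or tumor 3 (0.0453) or Py230 tumor 1 (0.0265) of that week, or gland 2 of week 1 of either strain (0.0461 and 0.0481). That of week 1 was called without 4T1 tumor 1 (0.0163) or 2 (0.0428) of week 3.

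Tigit scored -0.06, -0.51 and -0.15 in 4T1 tumors at week 1, 0.13, -0.68 and -0.44 at week 3, and -0.25, -0.19 and 0.11 at week 6. In Py230 tumors it scored -1.35, -0.87 and -0.97, then -0.58, -0.83 and -1.02, then -0.60, -0.85 and -0.47. At weeks 1 and 6 every 4T1 tumor was above every Py230 tumor, while at week 3 the lowest 4T1 tumor fell inside the Py230 range. BALB/c glands ranged from -1.40 to -0.85 (median -1.24) and C57BL/6 glands from -1.20 to -0.79 (median -0.99). Tigit was the receptor called between the models in all 3 weeks, at 0.82 (adjusted p = 0.00156), 0.48 (adjusted p = 0.0322) and 0.53 (adjusted p = 0.0127), all ± 0.17. The week 3 call was lost without 4T1 tumor 1 (difference 0.25, adjusted p = 0.264) or Py230 tumor 2 (0.077) or 3 (0.121). The week 6 call was lost without 4T1 tumor 3 (0.0773) or Py230 tumor 2 (0.0784). Against the BALB/c gland the differences were 0.76 (adjusted p = 0.00727), 0.87 (adjusted p = 0.0148) and 1.25 (adjusted p = 6.93e-07). No week was called in Py230 tumors against theirs, where the week 6 difference was 0.32 ± 0.17 (adjusted p = 0.12).

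Ctla4, Lag3 and Btla were high early in 4T1 primary tumors and no longer differed detectably from Py230 by week 6. Ctla4 encodes the receptor that blocks CD28 costimulation. It scored -0.01, -0.52 and -0.09 in 4T1 tumors at week 1, 0.09, -0.79 and -0.49 at week 3, and -0.88, -0.78 and -0.94 at week 6. Py230 tumors moved the other way in their means, from -1.47, -1.01 and -0.90 through -0.37, -0.93 and -1.25 to -0.56, -0.85 and -0.42. At week 1 the lowest 4T1 tumor was above the highest Py230 tumor, and at weeks 3 and 6 the groups overlapped. BALB/c glands stayed between -1.44 and -1.26, below all 9 4T1 tumors. The 4T1 minus Py230 difference was 0.92 ± 0.20 at week 1 (adjusted p = 0.00264), 0.45 at week 3 (adjusted p = 0.0874) and -0.25 at week 6 (adjusted p = 0.336). The week 3 difference was called without Py230 tumor 1 (0.69, adjusted p = 0.0181) or 4T1 tumor 2 (0.65, adjusted p = 0.0236) of that week. Over the gland, 4T1 tumors were called at each week, by 1.17 (adjusted p = 0.00369), 0.91 (adjusted p = 0.0256) and 0.49 (adjusted p = 0.0353), all ± 0.20. The week 3 call was lost without 4T1 tumor 1 (0.33) or BALB/c gland 1 (0.0543), 2 (0.0879) or 3 (0.0638) of that week. The week 6 call was lost without 4T1 tumor 1 (0.0653) or 2 (0.0964) or BALB/c gland 2 (0.0924) or 3 (0.0682) of that week. In Py230 tumors Ctla4 was called over the gland at week 6 (0.51, adjusted p = 0.039), and lost without Py230 tumor 1 (0.0964) or 3 (0.14) or C57BL/6 gland 1 (0.115) or 3 (0.091).

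Lag3 encodes a receptor for MHC class II. It scored 0.65, 0.60 and 0.58 in 4T1 tumors at week 1, 0.89, -0.02 and 0.11 at week 3, and -0.02, 0.06 and 0.00 at week 6, against -0.38, -0.01 and -0.01, then 0.01, -0.18 and -0.29, then 0.17, 0.03 and 0.17 in Py230 tumors. The week 1 groups were well apart, whereas the groups of weeks 3 and 6 overlapped. The difference was 0.74 ± 0.16 at week 1 (adjusted p = 0.0022), 0.48 at week 3 (adjusted p = 0.0232) and -0.11 at week 6 (adjusted p = 0.636). Without 4T1 tumor 1 the week 3 difference was 0.20 (adjusted p = 0.266), and the call was lost also without Py230 tumor 2 (0.0623) or 3 (0.0733). Btla, an inhibitory receptor of B cells, T cells and dendritic cells, scored 0.25, 0.07 and 0.35 in 4T1 tumors at week 1, 0.24, -0.12 and -0.01 at week 3, and -0.37, -0.64 and -0.34 at week 6. In Py230 tumors Btla scored -0.74, -0.42 and -0.33, then -0.14, -0.37 and -0.70, then -0.23, -0.32 and -0.02. The groups were apart in all 3 weeks, with 4T1 higher at weeks 1 and 3 and lower at week 6. The differences were 0.72 (adjusted p = 0.00127), 0.44 (adjusted p = 0.0203) and -0.26 (adjusted p = 0.156), all ± 0.14. The week 3 call was lost without 4T1 tumor 1 (0.101) or Py230 tumor 3 (0.128).

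Havcr2, encoding TIM-3, scored 0.56, 0.39 and 0.35 in 4T1 tumors at week 1, 0.60, -0.28 and -0.03 at week 3, and 0.53, 0.51 and 0.46 at week 6. Py230 tumors rose in their means from -0.17, 0.13 and 0.12 through 0.24, 0.12 and -0.15 to 0.43, 0.24 and 0.40. No week was called between the models, at 0.41 (adjusted p = 0.0592), 0.03 (adjusted p = 0.921) and 0.14 (adjusted p = 0.489), all ± 0.15. The week 1 difference was called without 4T1 tumor 1 (0.014) or 2 (0.0353) of week 3 or BALB/c gland 2 of week 1 (0.046). At week 6 it was called above the gland in both models, by 0.77 in 4T1 (adjusted p = 0.00011) and 0.50 in Py230 tumors (adjusted p = 0.00834). Cd160, encoding a receptor of cytotoxic T and NK cells, was the gene of lowest count and the flattest: its 12 group means ran from -1.16 to -0.96 and as measured, with all libraries, it was called in no comparison of tumors with each other or with glands. The 4T1 minus Py230 difference of Cd160 was 0.13, 0.01 and 0.00 over the 3 weeks, all ± 0.09 (adjusted p from 0.345 to 0.974).

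Read across the 9 genes, 4T1 compared to Py230 primary tumors had 5 genes called at week 1, all higher (Pdcd1lg2, Ctla4, Tigit, Lag3 and Btla), where 11.0% of all genes were called higher. At week 3 it had 5, all higher (Pdcd1lg2, Cd274, Tigit, Lag3 and Btla; background 11.9%), and at week 6 it had 2, both higher (Cd274 and Tigit; background 24.1%). At week 6 the share of the members called, 2 of 9, was near the background. The median difference of the 9 genes was 0.72, 0.45 and 0.14 in the 3 weeks, beside 0.01, -0.01 and 0.04 over all genes. Without 4T1 tumor 1 of week 3 the week 3 count was 1 (Pdcd1lg2), and it was 3 without Py230 tumor 2 and 2 without Py230 tumor 3 of that week. It was 7, with Pdcd1 and Ctla4 added, without 4T1 tumor 2 or Py230 tumor 1 of that week. A fit of only the groups compared called 0 genes at week 3, 5 at week 1 and 4 at week 6. The week 1 count was 8, Cd160 being the exception, without 4T1 tumor 1 or without 4T1 tumor 2 of week 3, which enter the shared estimate of the spread. Without 4T1 tumor 2 of week 1 and tumor 1 of week 3 together, a setting chosen after seeing the data, the counts were 8, 2 and 2.

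**Figure D2:**
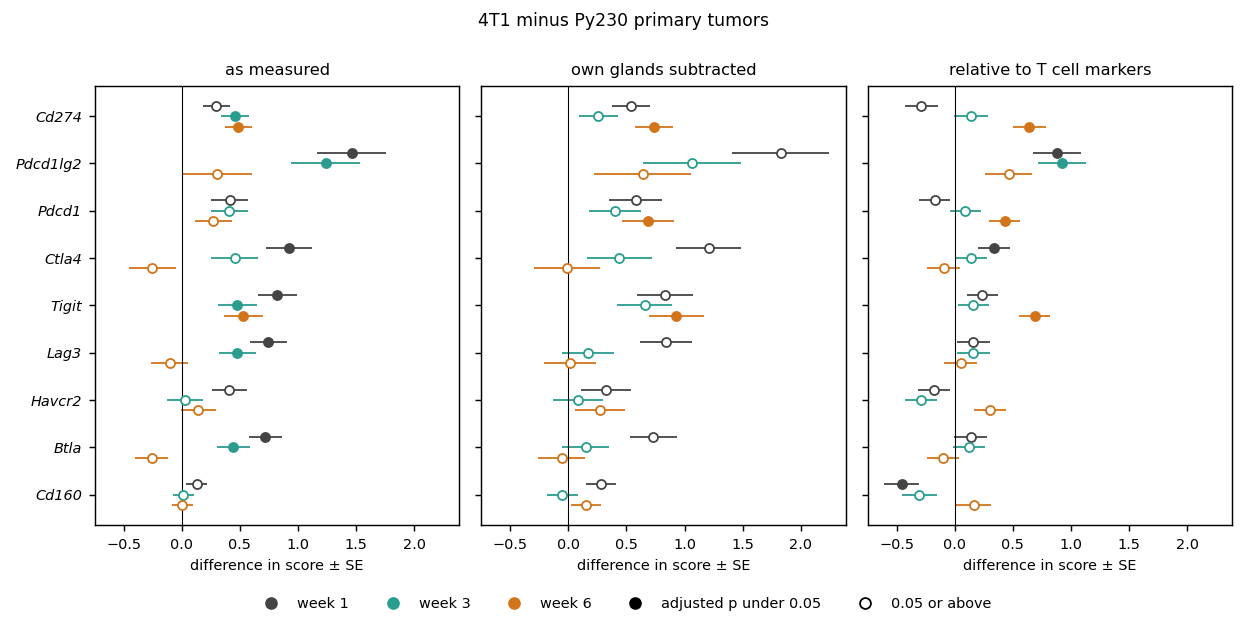
Difference in score (± SE) between 4T1 and Py230 primary tumors for each gene at weeks 1, 3 and 6, as measured, with each model's Matrigel glands subtracted, and relative to the mean of 10 T cell markers, with filled points called at an adjusted p under 0.05. At week 6 Cd274 and Tigit are called in all 3 panels (0.49 and 0.53 as measured) and Ctla4 lies at or below 0 in each.

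The shift of the model difference from week 1 to week 6 was tested directly. It was called for 4 genes, all downward: Ctla4 by -1.18 ± 0.28 (adjusted p = 0.00265), Pdcd1lg2 by -1.16 ± 0.42 (adjusted p = 0.0408), Btla by -0.98 ± 0.20 (adjusted p = 0.000632) and Lag3 by -0.85 ± 0.22 (adjusted p = 0.00544), where 12.4% of all genes were called lower. Among the others Cd274 had 0.19 (adjusted p = 0.432), Tigit -0.29 (adjusted p = 0.386) and Pdcd1 -0.14 (adjusted p = 0.691). The Pdcd1lg2 call was lost without any one of 10 of the 12 tumors of weeks 1 and 6 (adjusted p up to 0.137), 4T1 tumor 2 and Py230 tumor 2 of week 1 being the exceptions. Within 4T1 primary tumors, week 3 against week 1 gave 0 calls by limma (background 0.628%), with 1 gene, Havcr2, at an unadjusted p under 0.05. Without 4T1 tumor 1 of week 3, Lag3 (-0.56, adjusted p = 0.00742) and Havcr2 (-0.59, adjusted p = 0.00683) were called lower at week 3. From week 3 to week 6, Havcr2 was called higher (0.40, adjusted p = 0.0278; background 34.2%), while Btla (-0.49, adjusted p = 0.00582) and Ctla4 (-0.47, adjusted p = 0.04999) were called lower (background 18.8%). Ctla4 lay at the threshold, and its call was lost when any of 27 of the 36 libraries was left out (0.349 without 4T1 tumor 1 of week 3). The Havcr2 call was lost without 4T1 tumor 2 (0.256) or 3 (0.105) of week 3 or tumor 1 (0.068) or 2 (0.0619) of week 6. Without 4T1 tumor 1 of week 3, Pdcd1 (0.48, adjusted p = 0.00471) and Tigit (0.45, adjusted p = 0.0203) were also called higher at week 6. Lag3, at -0.31 with all libraries (adjusted p = 0.0991), was called lower without 4T1 tumor 2 (-0.48, adjusted p = 0.0171) or 3 (-0.42, adjusted p = 0.0494) of week 3. Pdcd1lg2, at -0.68 (adjusted p = 0.0567), was called lower without 4T1 tumor 2 (-0.93, adjusted p = 0.0192) or 3 (-0.91, adjusted p = 0.0233) of week 3, 4T1 tumor 1 (0.0452) or 2 (0.0233) of week 1 or C57BL/6 gland 1 of week 1 (0.0426). In Py230 primary tumors no gene was called by limma from week 1 to 3 (background 20.0%; 0 genes at an unadjusted p under 0.05) or from week 3 to 6 (background 6.03%; 1 such gene).

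Against their own Matrigel glands, 4T1 primary tumors had 6 of the 9 genes called at week 1, all higher (background 9.91%), 4 at week 3, all higher (background 2.10%), and 6 at week 6, all higher (background 38.6%). Pdcd1lg2, Ctla4, Tigit and Pdcd1 were called in each week. Lag3 (0.57, adjusted p = 0.0185) and Btla (0.47, adjusted p = 0.0275) were called at week 1 alone, and Havcr2 and Cd274 at week 6 alone. The week 1 count fell to 2 without 4T1 tumor 1, to 1 without 4T1 tumor 3 and to 2 without BALB/c gland 2. The week 3 count fell to 0 without 4T1 tumor 1 or BALB/c gland 2 or 3. A fit of only the groups compared called 0 genes at weeks 1 and 3 and 8 at week 6. Cd160 was called at week 6 without 4T1 tumor 1 (0.0422) or Py230 tumor 3 (0.0475) of week 3, and Lag3 without the former (0.0378). At week 6 the share of genes called rose with that of the whole table: adipocyte markers were lower than in the gland in 5 of 5, lactation markers in 5 of 6 and skeletal muscle markers in 5 of 5, and their part in the result was not tested.

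Py230 primary tumors against C57BL/6 glands gave 0 calls at week 1 (background 0.00924%) and 0 at week 3 (background 19.7%) by limma, with 0 and 2 genes, Pdcd1 and Ctla4, at an unadjusted p under 0.05. At week 6 they gave 3, all higher (Havcr2, Pdcd1 and Ctla4; background 28.8%). Without Py230 tumor 3 of week 3 the week 3 count was 4 (Pdcd1, Ctla4, Btla and Cd160), and it was 1 (Pdcd1) without 4T1 tumor 1 or 2 of that week. Between the Matrigel glands of the 2 strains, no gene was called by limma at week 1 (background 3.06%), week 3 (3.77%) or week 6 (3.84%), with 0, 0 and 3 genes at an unadjusted p under 0.05. Those 3 were Pdcd1 (-0.42, adjusted p = 0.18), Tigit (-0.40, adjusted p = 0.244) and Cd274 (-0.25, adjusted p = 0.332), which were lower in BALB/c glands, the opposite of the direction between the tumors. Pdcd1 passed the threshold in the glands of week 6 without 4T1 tumor 1 of week 3 (adjusted p = 0.0479). A fit of only the groups compared called Lag3 and Btla at week 3 (higher in BALB/c) and Pdcd1lg2, Pdcd1 and Tigit at week 6 (lower in BALB/c).

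**Figure D3:**
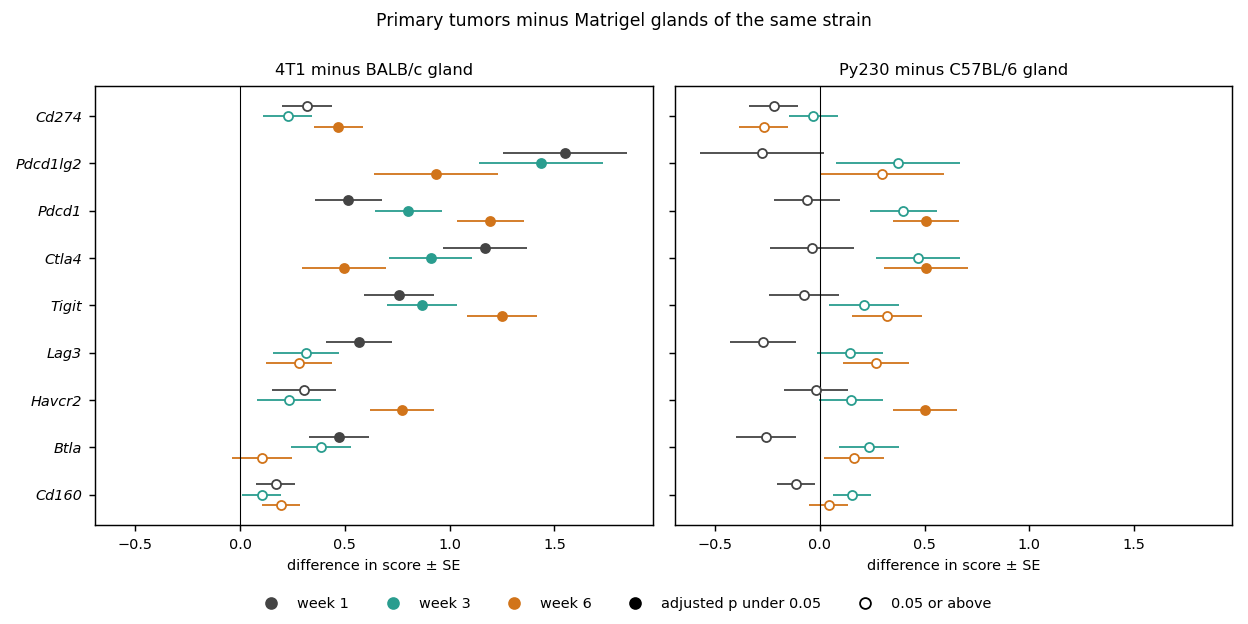
Difference in score (± SE) between primary tumors and the Matrigel glands of the same strain and week, for 4T1 in BALB/c and Py230 in C57BL/6 mice, with filled points called at an adjusted p under 0.05. In 4T1 tumors Pdcd1 and Tigit reach 1.19 and 1.25 at week 6, while in Py230 tumors the filled points are Pdcd1, Ctla4 and Havcr2 at week 6.

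Subtracting each model's own glands takes the gland difference between the strains out of the model difference. Whether that gland difference carries over unchanged into tumors was not tested. At week 1, 0 genes were called by limma (background 0.305%), although 8 of the 9 had an unadjusted p under 0.05 and all 9 differences were positive, from 0.28 for Cd160 to 1.83 for Pdcd1lg2 (adjusted p = 0.0516 for Pdcd1lg2 and 0.0554 for Ctla4). This comparison turned on single libraries: 7 genes were called without 4T1 tumor 1 of week 3 and 6 without 4T1 tumor 2 of week 1. The count was also 4 without BALB/c gland 3 of week 1, 3 without C57BL/6 gland 2 of week 1, 2 without 4T1 tumor 2 or 3 of week 3, and 1 without Py230 tumor 1 of week 3 or BALB/c gland 1 of week 6. At week 3, 0 genes were called (background 9.15%), with 2, Tigit and Pdcd1lg2, at an unadjusted p under 0.05, and Tigit was called without 4T1 tumor 2 of that week (adjusted p = 0.0315). At week 6, Tigit (0.93 ± 0.24, adjusted p = 0.00443), Cd274 (0.74 ± 0.17, adjusted p = 0.00156) and Pdcd1 (0.69 ± 0.22, adjusted p = 0.024) were called higher (background 14.4%). The Tigit and Cd274 calls held without each single library, and that of Pdcd1 was lost without 4T1 tumor 3 (0.0516), Py230 tumor 2 (0.0721), BALB/c gland 2 (0.0609) or C57BL/6 gland 2 (0.0624) of week 6.

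These are bulk samples, in which fewer cells of a type and less RNA per cell cannot be told apart, so the scores were set beside marker genes of the cells that carry the receptors. Of 10 T cell markers, 9 were called higher in 4T1 than Py230 tumors at week 1, 1 at week 3 and 0 at week 6 (backgrounds 11.0%, 11.9% and 24.1%, which hold for the marker counts that follow). Their mean score lay between -0.19 and 0.17 in 4T1 and between -0.74 and -0.46 in Py230 tumors at week 1. At week 6 the groups overlapped, with -0.43 to -0.41 in 4T1 and -0.46 to -0.11 in Py230 tumors, and the 10 markers had a median difference of -0.16. Cytotoxic T and NK markers were called higher in 6 of 10 at week 1 and 3 of 10 at week 3, and at week 6 in 1, with 1 lower. Regulatory T cell markers were called higher in 4 of 6, then 1, then 1 with 1 lower. All 7 pan-leukocyte markers were called higher at week 1, 3 at week 3 and 0 at week 6, macrophage markers in 1, 7 and 0 of 8, and dendritic cell markers in 3 of 7 higher, 3 higher and 2 lower. Neutrophil markers went the other way, with 2, 4 and 6 of 6 called higher in 4T1. B cell and lymph node markers were called in 0 of 8 at week 1, in 3 higher and 1 lower at week 3, and in 1 lower at week 6. The part of these cells in the checkpoint differences was not tested beyond the T cell adjustment that follows.

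Relative to the mean of the 10 T cell markers in the same library, the genes called higher at weeks 1 and 3 were not those called at week 6. Weeks were not tested against each other on this scale. The same mean was subtracted from every gene of a library. For the ligands, which other cells also make, it is no adjustment for those cells. At week 1, Pdcd1lg2 (0.88 ± 0.20, adjusted p = 0.00131) and Ctla4 (0.34 ± 0.14, adjusted p = 0.0218) were called higher in 4T1 tumors, where 0.291% of all genes were, and Cd160 was called lower (-0.46 ± 0.15, adjusted p = 0.00533), as were 90.5% of all genes because the T cell markers themselves were higher. Tigit, Lag3 and Btla, called as measured, had 0.24, 0.16 and 0.14 (adjusted p from 0.0919 to 0.343). At week 3, Pdcd1lg2 alone was called higher (0.92 ± 0.20, adjusted p = 0.00153; background 0.503%), and not without 4T1 tumor 1 of that week (0.68, adjusted p = 0.0559). At week 6, Tigit (0.69 ± 0.14, adjusted p = 0.000331), Cd274 (0.64 ± 0.14, adjusted p = 0.00169) and Pdcd1 (0.43 ± 0.13, adjusted p = 0.0327) were called higher (background 5.32%). The median difference over all genes was 0.19 in that comparison, although no T cell marker was called between the models at that week. The Pdcd1 call was lost without any 1 of 5 of the 6 tumors of that week (adjusted p from 0.0768 to 0.15), all but Py230 tumor 2, and the Ctla4 call of week 1 without 4T1 tumor 1 (0.0966) or Py230 tumor 1 (0.115). At week 3 the count was 3 without 4T1 tumor 2, with Havcr2 (adjusted p = 0.0364) and Cd160 (adjusted p = 0.00875) called lower.

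**Figure D4:**
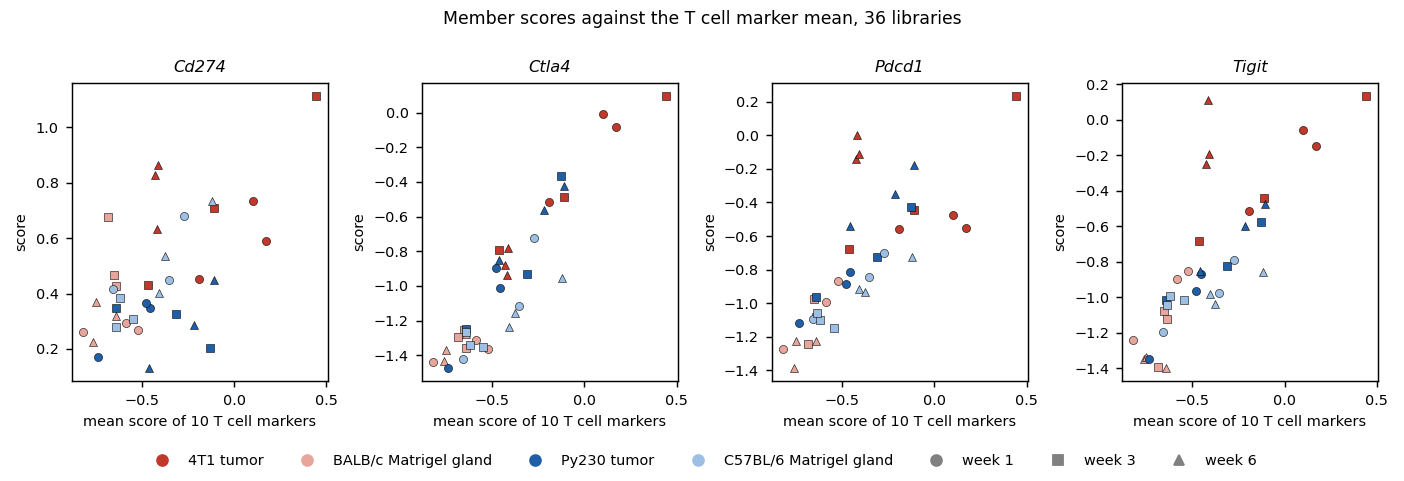
Score of Cd274, Ctla4, Pdcd1 and Tigit against the mean score of 10 T cell markers in each of the 36 libraries, with color for tumor model or gland strain and shape for the week. Ctla4 lies higher where the T cell markers do over the 36 libraries (r = 0.93), while the 3 week 6 4T1 tumors lie above the other libraries of like T cell marker mean for Pdcd1 and Tigit.

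Over the 36 libraries, which share groups, the correlation with the T cell marker mean was highest for Ctla4 (r = 0.93) and lowest for Cd274 (r = 0.59), with 0.84 for Pdcd1lg2, 0.82 for Btla, 0.80 for Tigit, 0.78 for Lag3, 0.76 for Pdcd1, 0.73 for Cd160 and 0.66 for Havcr2. Several genes correlated more closely with other lists. Pdcd1, Tigit and Havcr2 did so with the neutrophil marker mean (0.82, 0.84 and 0.77), and Btla and Lag3 with that of dendritic cells (0.91 and 0.83). Lag3 was closer still to the cytotoxic T and NK marker mean (0.86). With the adipocyte marker mean, Pdcd1, Havcr2 and Tigit had r of -0.77, -0.74 and -0.67. The part of tissue makeup in these values was not tested. The genes most like the members other than Cd160 over the 36 libraries, among those whose mean normalized count reached 50, were as follows. Ctla4 was nearest to Icos (r = 0.97), Cd5 (0.94) and Il2rg (0.93), Tigit to Gpr171 (0.95), Acap1 (0.93) and Pdcd1 (0.93), and Pdcd1 to Cd8b1 (0.94), Batf2 (0.94) and Psmb8 (0.93). Havcr2 was nearest to Runx3 (0.94), Zmynd15 (0.94) and Rnf149 (0.92), Btla to Xcr1 (0.93), Ipcef1 (0.90) and Napsa (0.90), and Lag3 to Ostm1 (0.90), Rinl (0.89) and BC028528 (0.88). Among the ligands, Pdcd1lg2 was nearest to Chil3 (0.92), Il2rg (0.92) and Bmp2k (0.92), and Cd274 to H2-D1 (0.88), Nos2 (0.86) and Gm7030 (0.85), the last of which, like H2-D1, belongs to the MHC class I family whose reads are hard to separate.

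The genes' levels were ordered over the 12 groups, and few neighbouring groups stood apart. Taking neighbours to differ where their means are further apart than the larger of their SDs, none of the 11 steps in the order did for Ctla4, Tigit, Lag3 and Havcr2, 1 did for Cd274, Pdcd1 and Cd160, and 2 did for Pdcd1lg2 and Btla. Cd274 was highest in 4T1 tumors at week 6 (0.77 ± 0.12, SD, n = 3) and lowest in BALB/c glands at week 1 (0.27 ± 0.02), and Tigit was highest in 4T1 tumors at week 6 (-0.11 ± 0.19) and lowest in BALB/c glands of the same week (-1.36 ± 0.03). Pdcd1 shared those 2 ends, at -0.08 ± 0.08 and -1.28 ± 0.09. Ctla4, Pdcd1lg2, Lag3 and Btla were highest in 4T1 tumors at week 1, at -0.20 ± 0.27, 0.21 ± 0.77, 0.61 ± 0.03 and 0.23 ± 0.14.

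The partners of these receptors moved unevenly. For the counts that follow, the share of all genes called higher in 4T1 than in Py230 tumors was 11.0%, 11.9% and 24.1% at weeks 1, 3 and 6, and the share called lower was 8.43%, 18.5% and 16.7%. Against the glands of week 6, 38.6% of all genes were called higher and 21.5% lower in 4T1 tumors, and 28.8% and 18.7% in Py230 tumors. Of 11 further ligands, 4T1 compared to Py230 tumors had 1 called higher and 2 lower at week 1, 3 and 3 at week 3, and 3 and 1 at week 6, with medians of 0.03, 0.04 and 0.09. Nectin3, an adhesion molecule that can bind TIGIT, was called lower in 4T1 at week 1 (-0.25 ± 0.06, adjusted p = 0.00796) and higher at week 6 (0.82 ± 0.06, adjusted p = 4.43e-11). Ceacam1, a cell adhesion molecule proposed as a TIM-3 ligand, was called lower at week 3 (-0.53 ± 0.07, adjusted p = 4.51e-06) and week 6 (-1.15 ± 0.07, adjusted p = 1.27e-12). Cd80, the shared ligand of CTLA-4 and CD28, was higher at week 3 (0.39 ± 0.10, adjusted p = 0.00361), and Lgals3, encoding the LAG-3 ligand galectin-3, was higher at week 1 (0.49 ± 0.15, adjusted p = 0.0273). Against the glands of week 6, 5 of the 11 were called higher and 1 lower in 4T1 tumors, and 1 higher and 2 lower in Py230 tumors. The 5 of 11 higher in 4T1 tumors, like the 3 of 11 higher than Py230 at week 6, are near the share of all genes.

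Of 8 other inhibitory receptors and B7 family genes, 3, 3 and 1 passed the test upward in 4T1 over Py230 tumors at weeks 1, 3 and 6, and 1 passed it downward at week 6 (24.1% of all genes higher and 16.7% lower in that week). Klrg1, a receptor of differentiated T and NK cells, was higher at week 1 (0.71 ± 0.13, adjusted p = 0.000482) and week 3 (0.50 ± 0.13, adjusted p = 0.00435), as was Cd200r1, an inhibitory receptor of myeloid cells (0.71 ± 0.14, adjusted p = 0.00146, and 0.59 ± 0.14, adjusted p = 0.00294). At week 6, Vtcn1, encoding the epithelial B7-H4, was lower (-0.72 ± 0.15, adjusted p = 0.000455) and Cd276, encoding B7-H3, was higher (0.31 ± 0.08, adjusted p = 0.00375). Cd276 was also above the gland in both models at that week, by 0.84 in 4T1 (adjusted p = 7.76e-09) and 0.57 in Py230 tumors (adjusted p = 6.37e-06). Cd244a was not analysed here.

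The activating counterparts, Cd28 (also among the T cell markers), Icos, Cd226 and Tnfsf14, had 3 of 4 called higher in 4T1 tumors at week 1, 1 higher at week 3 and 1 lower at week 6 (backgrounds 11.0% and 11.9% higher and 16.7% lower). Cd226, the activating receptor that shares ligands with TIGIT, was higher in 4T1 tumors at week 1 (0.32 ± 0.10, adjusted p = 0.0314) and lower at week 6 (-0.33 ± 0.10, adjusted p = 0.011), the week in which Tigit was higher by 0.53. Icos was higher at week 1 (0.82 ± 0.19, adjusted p = 0.00425), and Tnfsf14, the HVEM ligand LIGHT, at week 3 (0.61 ± 0.14, adjusted p = 0.00176). At week 6 Cd226 was below the gland in both models, by -0.26 in 4T1 (adjusted p = 0.0316) and -0.42 in Py230 tumors (adjusted p = 0.00151).

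Of 11 genes of inhibitory signalling and T cell exhaustion, 3, 3 and 3 were called higher and 1, 1 and 2 lower in 4T1 than in Py230 tumors over the 3 weeks, which at week 6 is near the 24.1% of all genes called higher. Eomes, a transcription factor of effector and exhausted T cells and of NK cells, was higher in each week, by 0.70 (adjusted p = 0.00257), 0.49 (adjusted p = 0.0163) and 0.66 (adjusted p = 0.000931), all ± 0.15. Nfatc1, an activator of Pdcd1 transcription, was higher at week 6 (0.29 ± 0.06, adjusted p = 0.000536). Batf was higher at week 3 (0.38 ± 0.10, adjusted p = 0.00434) and Ptpn11, encoding the phosphatase SHP-2 that PD-1 recruits, was slightly lower at week 1 (-0.11 ± 0.03, adjusted p = 0.0149). In Py230 tumors at week 6, 4 of the 11 were called above the gland (background 28.8%), led by Tcf7 (0.71 ± 0.13, adjusted p = 8.67e-05) and Nr4a1 (1.04 ± 0.20, adjusted p = 0.000116). In 4T1 tumors 7 of the 11 were (background 38.6%), led by Eomes (0.92 ± 0.15, adjusted p = 1.42e-05) and Nr4a2 (0.31 ± 0.09, adjusted p = 0.00433).

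The interferon-γ axis, the pathway that induces PD-L1, had 4, 4 and 1 of 12 genes called for 4T1 over Py230 tumors at weeks 1, 3 and 6, all of them higher (backgrounds 11.0%, 11.9% and 24.1%). Jak2, the kinase of the interferon-γ receptor, was higher at week 1 (0.28 ± 0.08, adjusted p = 0.0191) and week 6 (0.63 ± 0.08, adjusted p = 5.98e-07), and was the 1 gene called at week 6. Ifngr2 (0.20 ± 0.06, adjusted p = 0.0179) was higher at week 1, and Ifngr1 (0.20 ± 0.05, adjusted p = 0.0023) and Socs1 (0.56 ± 0.15, adjusted p = 0.00502) at week 3. Over the glands of week 6, 10 of the 12 were called higher and 1 lower in 4T1 tumors (backgrounds 38.6% and 21.5%), with Jak2 at 0.69 (adjusted p = 1.07e-07) and Cxcl10, an interferon-induced T cell chemokine, at 1.09 (adjusted p = 0.000377). In Py230 tumors of that week 2 were called higher and 1 lower (backgrounds 28.8% and 18.7%), with Ifngr2 at 0.30 (adjusted p = 0.000145) and Ifngr1 at -0.29 (adjusted p = 2.4e-05).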

How the data were processed

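RNA of 36 primary tumors and Matrigel glands was sequenced from stranded libraries. Per the labels, the authors aligned the reads with STAR to mm10 and used DESeq2, without versions given. The deposited expression values are scores, scaled so that each library has mean 0 and SD 1 over its 21650 genes. Which values were scaled was not stated. The scaling is seen in the values, and its steps were not given in the sources used here. Whole reads could not be recovered from these scores, so depth and counting precision are unknown and no count test was possible. The authors' mean normalized count per gene (another deposited column, pooled over libraries) was used for expression filters, and gene symbols came from the same table, with 5384 genes named from the mouse reference. The authors' fold changes, p-values and pathway categories were not used.

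Scores were fitted with limma 3.58.1 in R 4.3.3 (1 mean per group, robust and trended variance), and p-values were adjusted over all genes by the method of Benjamini and Hochberg, with a threshold of 0.05. An exact permutation test of 3 against 3 libraries cannot go below p = 0.10, so none was used. In simulated data for the 4T1 minus Py230 comparison at week 1, with 200 of 21650 genes shifted by 0.5, the fit recovered 168 and made 7 false calls. The simulated noise was independent between genes and had the same SD in every group. The real groups differed in spread and had outlying libraries, so these rates need not hold for the calls reported here. Alternatives were cyclic loess and robust-line rescaling, a minimum mean normalized count of 10, only the groups compared, a replicate block, and each library left out. All 9 checkpoint genes were named. Of each other gene list, the 2 genes with the smallest p at the week described were named, marker lists were given by counts and mean scores, and for likeness the 3 genes with the highest r were named, except for Cd160, whose likeness is not reported here. Members and lists were chosen with earlier results of these data known. Positions are from GENCODE vM21 and promoters from RefSeq, both GRCm38. Python 3.11.15 with pandas 2.3.3 made the tables. 2 listed genes, Cd244a and Cr2, were not analysed here.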

Additional observations from a re-analysis of the deposited data

Results flagged for a closer look

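At week 6, the difference between tumor and own Matrigel gland was itself different between the 2 models for 3 checkpoint genes by limma (adjusted over all genes). The excess of 4T1 over Py230 was 0.93 score units for Tigit (adjusted p = 0.00443), 0.74 for Cd274 (adjusted p = 0.00156) and 0.69 for Pdcd1 (adjusted p = 0.024). Of all genes, 14.4% were called higher in that comparison. The Pdcd1 value joins a tumor difference of 0.27 (adjusted p = 0.182) with a gland difference between the strains of -0.42 (adjusted p = 0.18), and its call was lost without any 1 of 4 libraries of week 6. For Tigit the parts were 0.53 and -0.40, and for Cd274 0.49 and -0.25. For Tigit and Pdcd1 all 3 4T1 tumors of that week lay above every BALB/c gland and above every Py230 tumor.

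The 4T1 minus Py230 difference changed between weeks 1 and 6 for 4 genes. It was lower at week 6 by -1.18 for Ctla4 (adjusted p = 0.00265), -1.16 for Pdcd1lg2 (adjusted p = 0.0408), -0.98 for Btla (adjusted p = 0.000632) and -0.85 for Lag3 (adjusted p = 0.00544). Of all genes, 12.4% were called lower in that comparison. The Pdcd1lg2 call was lost when any one of most tumors of weeks 1 and 6 was left out (adjusted p up to 0.137). The mean of the T cell markers moved the same way, from above Py230 at week 1 to a median difference of -0.16 at week 6, and its part in this change was not tested.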

How the results depend on the processing

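No call of a checkpoint gene changed direction under any alternative run. Counts below are calls summed over weeks, and the cause of each change was not tested unless given. Fitting only the groups compared, which leaves fewer libraries to estimate the spread, gave 8 in place of 16 calls for 4T1 tumors against BALB/c glands, 1 in place of 3 for 4T1 tumors over time, 6 in place of 3 for Py230 tumors against C57BL/6 glands and 5 in place of 0 between the glands, and it left 0 calls between the models at week 3. Without 4T1 tumor 2 of week 1 and tumor 1 of week 3 (chosen after seeing the data) there were 6 in place of 3 for Py230 against its glands, 9 in place of 3 for 4T1 over time and 11 in place of 3 between the models with glands subtracted, which was 5 under cyclic loess. Leaving out 1 library at a time gave 9 to 17 calls between the models (12 with all), 11 to 18 for 4T1 against its glands (16), 2 to 7 for Py230 against its glands (3), 0 to 1 between the glands, 1 to 6 for 4T1 over time (3), 0 for Py230 over time, 2 to 10 with glands subtracted (3), 3 to 4 for the change from week 1 to 6 (4) and 6 to 10 relative to T cell markers (7). Over all genes, the split of calls by direction depended on the scaling: at week 3 39.1% of the calls between the models were higher in 4T1, and 50.7% with robust-line rescaling, and at week 6 59.1%, and 49.0% under cyclic loess.

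Replicate numbers were not taken as pairs in the main fit. Of 54 pairs of same-numbered libraries of a week, 20 had deviations correlated above 0.1 (range -0.60 to 0.82). Pairs with different numbers were not computed beside them, so these values cannot decide whether libraries are paired or share a batch. With the replicate block there were 14 calls between the models (12 without) and 5 with glands subtracted (3 without), and no call of a checkpoint gene was lost. Depth cannot be read from the scores, so how far it limits the low-count genes, Cd160 above all, is unknown.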

Other observations

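Among the 36 pairs of the 9 genes, Pearson's r over the 36 libraries ran from 0.43 (Cd274 and Btla) to 0.93 (Pdcd1 and Tigit), a description over libraries that share groups and tissue makeup. After subtracting group means, Pdcd1 and Tigit still had r = 0.91, Pdcd1 and Havcr2 0.89, and Pdcd1 and Lag3 0.87 (0.62 before subtraction). The neighbouring ligand genes Cd274 and Pdcd1lg2 had 0.70 before and 0.68 after.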
